A study of Homo sapiens with 20 samples.

Results

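The study silenced POLR1D with more than 1 siRNA, and the comparison described here set siPOLR1D-3 against siPOLR1D-2 in SW480 cells. It used the 6 SW480 libraries labelled siPOLR1D-2 or siPOLR1D-3, 3 of each, of the 20 libraries in the series. SW480 is an established colorectal cancer cell line with a gain of the whole of chromosome 13, where POLR1D lies. Cells were reverse transfected with pre-designed siRNAs by lipofection and harvested after 72 h, and the captured coding transcriptome was sequenced. The 6 SW480 libraries of the negative control (SCR, which the series names AllStars Negative Control) served as levels beside the siRNA libraries, and the 4 siRNA libraries of HT29, a second colorectal cancer line with a focal gain at 13q12.2, were compared apart. No genotype, clone or other agent distinguishes the groups within a cell line, and every library came from transfected cells. The labels do not say whether replicates were separate cultures, so p-values measure only the spread between these libraries.

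POLR1D is a subunit shared by RNA polymerases I and III, which make ribosomal RNA and small RNAs such as tRNA. An siRNA guides the silencing complex to transcripts that match its sequence, and siRNAs against one gene share the target but differ in sequence. A comparison of them holds the intended target fixed, but not how far it is silenced. Short double-stranded RNA can be sensed by RIG-I and related receptors, which switch on interferon-stimulated genes. In colorectal cancer cells, Wnt signalling maintains a stem-like programme, while MAPK signalling and the integrated stress response control growth factors, amino acid transport and translation.

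The deposited normalized DESeq2 read counts summed to between 19870400 and 22057100 in the 6 libraries. No siRNA library was a copy of another. Of 9 epithelial markers, 8 were tested and their summed level ranged from 184766 to 231859 with siPOLR1D-2, from 189719 to 208626 with siPOLR1D-3 and from 139596 to 270478 in SCR, and CDH17 and the keratins KRT8, KRT18 and KRT19 were present in every library. The fibroblast markers DCN, FAP and THY1, the leukocyte markers CD3E, CD3D, MS4A1 and ITGAM (MS4A1 at 0 throughout), and the endothelial markers PECAM1, CLDN5 and EMCN stayed below 10 in all 12 SW480 libraries. Of 10 fibroblast markers 5 were tested, and their list summed to 264 to 1148 with siPOLR1D-2, 657 to 1143 with siPOLR1D-3 and 241 to 1276 in SCR. This sum was low in siPOLR1D-2 replicates 1 and 2 and high in siPOLR1D-2 replicate 3, with PDGFRB at 7.93, 4.91 and 248 in siPOLR1D-2 and 387, 341 and 313 in siPOLR1D-3, and its part in the results was not tested. LUM, a matrix proteoglycan, was the fibroblast marker called, lower with siPOLR1D-3 at 150.02, 112 and 106 against 54.4, 43.5 and 46.02 (log2 difference -1.32, SE 0.24, adjusted p = 0.0235). It went against its list, where the other 4 tested markers had a positive difference and the median was 1.04. Of 11 leukocyte markers 3 were tested (672 to 1902, 1055 to 1181 and 500.4 to 2016 in the same order of groups), and of 8 endothelial markers 3 (40.3 to 72.8, 83.0 to 138 and 77.0 to 275). Some of these markers were present in all 12 SW480 libraries. HBA1 ranged from 263 to 1825, CD68 from 54.7 to 161 and VWF from 10.6 to 130. LYZ ranged from 31.7 to 777 and was highest in siPOLR1D-2 replicate 1. In bulk RNA, fewer cells of a kind and less RNA per cell cannot be told apart.

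The target was lower than in SCR with both siRNAs, and no difference between the siRNAs was detected. The normalized read count of POLR1D, on chromosome 13 of GRCh38 from 27620742 to 27744237, was 1336, 913 and 972 in siPOLR1D-2 replicates 1 to 3 and 843, 1174 and 981 in siPOLR1D-3 replicates 1 to 3. In the 6 SCR libraries it ranged from 1829 to 2599 (median 2030.3). Every siRNA library lay below every SCR library, and the siRNA groups overlapped. The means were 1073 ± 229 (SD, n = 3) with siPOLR1D-2 and 999 ± 166 (SD, n = 3) with siPOLR1D-3, which were 50.7% and 47.2% of the SCR mean. siPOLR1D-3 minus siPOLR1D-2 was -0.10 on the log2 scale (95% interval -0.52 to 0.33, adjusted p = 0.765 from limma). The exact permutation test of 3 libraries against 3, 2-sided, gave p = 0.7, where 0.1 is the smallest it allows.

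The transcriptome differed between the siRNAs. Genes with a normalized read count of 10 or more in at least 3 of the 6 libraries were tested with limma on log2(value + 1), and a gene was called at a Benjamini-Hochberg adjusted p under 0.05. Of 15325 genes tested, 1261 were called, which is 8.23% of those tested. Of these, 722 (4.71% of the genes tested) were higher and 539 (3.52%) lower with siPOLR1D-3, so that 57.3% of the calls were higher. With upper quartile normalization on top of the authors' scaling, 866 were higher and 370 lower, a share of 70.1% higher, and the median difference of all genes moved from 0.0087 to 0.079 on the log2 scale. Among the calls, 556 exceeded a 2-fold difference (1 on the log2 scale) and 209 exceeded 2 on the log2 scale, and of the latter 184 were higher and 25 lower with siPOLR1D-3.

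The count of calls rested on which libraries entered. Without siPOLR1D-2 replicate 3 it rose to 5161, which is 33.7% of the genes tested, with 2613 higher and 2548 lower. All 1261 calls of the 6 libraries were among them and made up 24.4% of them. Without siPOLR1D-2 replicate 1 or 2 the count was 156 or 208. Without siPOLR1D-3 replicate 1, 2 or 3 limma called 0 genes, with 3015, 3246 and 3040 genes at an unadjusted p under 0.05 and a smallest adjusted p of 0.0650, 0.0737 and 0.0661. A weight for each library raised the count to 4755, and a fit with the SCR libraries added gave 494, of which 469 were among the 1261. With the replicate number as a block it was 60, all among the 1261. The individual calls given hereafter are those of the 6 libraries.

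siPOLR1D-2 replicate 3 was nearer to the siPOLR1D-3 libraries than to its own replicates. Over the tested genes, the SD of the log2 differences was 0.61 between siPOLR1D-2 replicates 1 and 2, and 0.44 to 0.50 between siPOLR1D-3 libraries. Between siPOLR1D-2 replicate 3 and the siPOLR1D-3 libraries it was 0.68 to 0.71. Against its own replicates 1 and 2 it was 0.93 and 0.94, close to the 0.96 to 1.05 that separated those replicates from siPOLR1D-3. The share of genes over 2-fold apart was 10.8% to 11.3% against siPOLR1D-3, and 16.6% and 17.4% against its own replicates.

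**Figure D1:**
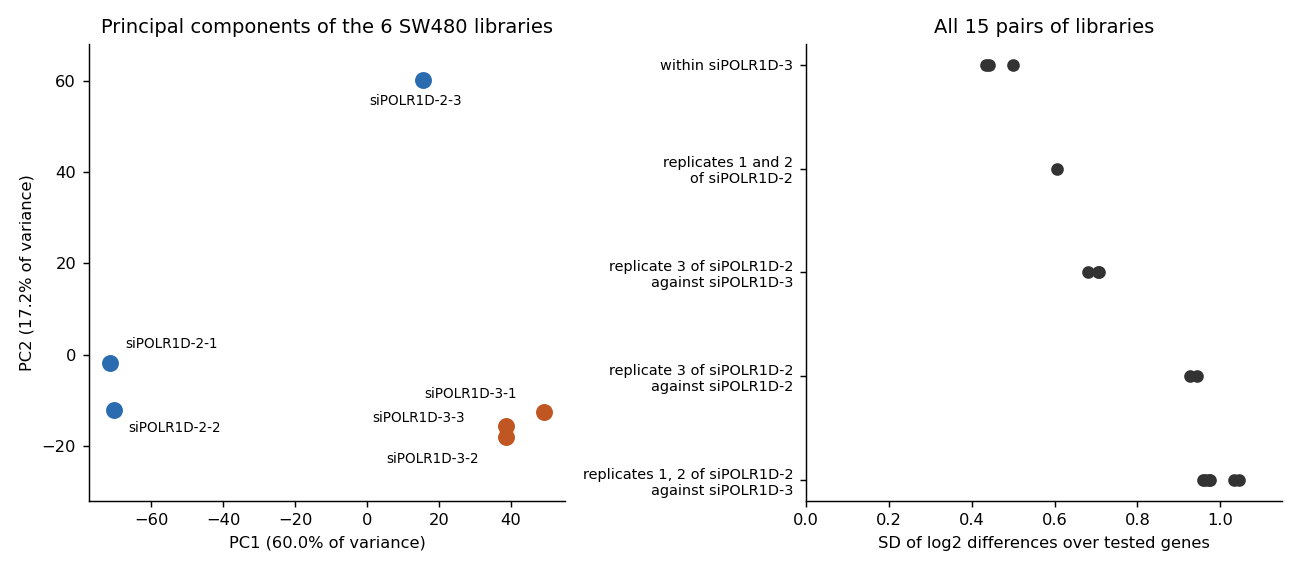
The left panel plots the 6 SW480 libraries on the first 2 principal components of log2(value + 1), with 60.0% and 17.2% of the variance, and the right panel the SD of the log2 differences over tested genes for all 15 pairs of libraries. siPOLR1D-2 replicate 3 (PC1 15.6) lies between siPOLR1D-2 replicates 1 and 2 (-71.4 and -70.5) and siPOLR1D-3 (38.5 to 49.1), and apart from both on PC2 (60.1).

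The library was therefore placed gene by gene on the line between the other 2 groups. For the 5161 genes called without it, position 0 was the mean log2 value of siPOLR1D-2 replicates 1 and 2, and position 1 the mean of siPOLR1D-3. Its own values entered the choice of these genes only through the filter, which 44 of them (28 higher and 16 lower) passed through it alone. The median position of siPOLR1D-2 replicate 3 was 0.66, with quartiles of 0.29 and 1.003, and it was nearer to siPOLR1D-3 for 3172 genes (61.5%). It lay below 0.25 for 1196 genes (23.2%), between 0.25 and 0.75 for 1783 (34.5%) and above 0.75 for 2182 (42.3%). On values that were not logged, the median position was 50.05% of the way for genes higher with siPOLR1D-3 and 74.0% for genes lower with it. For the 236 genes that were higher by over 3 on the log2 scale, its median value lay 39.8% of the way (quartiles 22.8% and 70.5%), and for the 32 lower by over 3 it lay 98.8% of the way. On the log2 scale these medians were 0.72 and 0.94. Without the 11 and 5 of these genes that passed the filter through this library alone, the medians were 0.70 and 0.97 on the log2 scale, and 37.8% and 100.2% of the way on values not logged.

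The SCR libraries, which took no part in choosing these genes, spread along the same line. SCR replicates 2 and 3 had median positions of 0.097 and 0.15, SCR replicate 1 of 0.47, and SCR replicates 4, 5 and 6 of 0.84, 0.83 and 0.75. A set of genes that differs between siPOLR1D-2 replicates 1 and 2 and siPOLR1D-3 therefore also differs among control libraries. The labels give no batch or date, so what these libraries share and the siRNA cannot be told apart for genes that move along this line. For 1788 of the 5161 genes (34.6%) the SCR range covered both siRNA means. Among the 1261 calls of all 6 libraries this was so for 212 (16.8%), and among all genes tested for 7496 (48.9%).

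**Figure D2:**
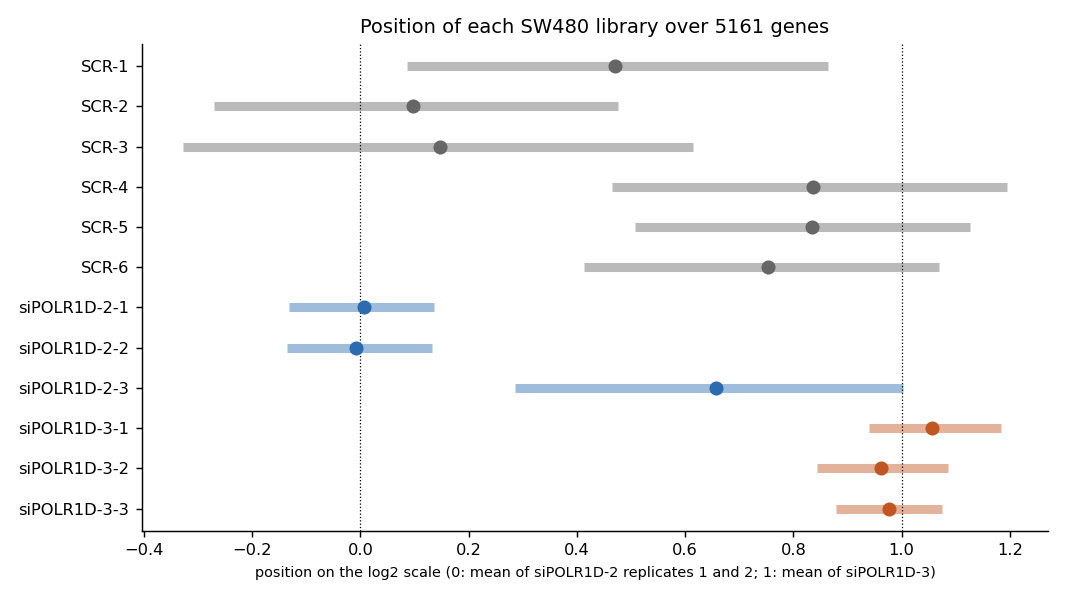
The plot of library positions gives, for each of the 12 SW480 libraries, the median (point) and quartiles (bar) of its position over 5161 genes on the log2 scale, where 0 is the mean of siPOLR1D-2 replicates 1 and 2 and 1 the mean of siPOLR1D-3. siPOLR1D-2 replicate 3 sits at 0.66, SCR replicates 2 and 3 at 0.097 and 0.15, SCR replicate 1 at 0.47 and SCR replicates 4 to 6 at 0.75 to 0.84; the positions of the 5 libraries that define the line follow from its construction.

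In the calls of all 6 libraries siPOLR1D-2 replicate 3 was part of its group, which limits its position by construction. That position was below 0.25 for 687 of the 1261 (54.5%), between 0.25 and 0.75 for 572 and above 0.75 for 2, and it was nearer to siPOLR1D-3 for 215. The 3 libraries of each siRNA did not overlap for any of the 1261, while this held for 5271 genes (34.4%) of those tested. The siPOLR1D-3 libraries lay wholly outside the SCR range, and the siPOLR1D-2 libraries did not, for 445 calls (35.3%, against 15.2% of genes tested). The reverse held for 295 calls (23.4%, against 7.69%). For 44 calls (3.49%, against 0.30% of genes tested) the groups lay outside SCR on opposite sides. For 24 (1.90%, against 4.52%) they lay outside on the same side, and for 453 (35.9%, against 72.3%) neither lay wholly outside.

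Interferon-stimulated genes split between the siRNAs. Of 46 tested, 5 were called higher and 2 lower with siPOLR1D-3 (15.2% called, against 8.23% of all genes). The other 39 did not pass, and the median difference was 0.19 against 0.0087 for all genes. DDX58, which encodes the RNA sensor RIG-I, was among the 3 genes with the smallest adjusted p of all tested and was lower with siPOLR1D-3. Its normalized read count was 499, 589 and 483 with siPOLR1D-2 and 139, 139 and 125 with siPOLR1D-3, against 146 to 311 (median 195) in SCR (log2 difference -1.95, SE 0.16, adjusted p = 0.00751 from limma). All 3 siPOLR1D-2 libraries, replicate 3 included, were above every SCR library and all 3 siPOLR1D-3 libraries below every SCR library. SAMD9, an antiviral factor, was also lower, at 1093, 1050.2 and 1120.5 against 604, 646 and 583 (log2 difference -0.83, SE 0.11, adjusted p = 0.0134), with siPOLR1D-2 above the SCR range of 333 to 614 (median 416).

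The genes called higher with siPOLR1D-3 were the IFITM family of antiviral membrane proteins, IFI27 and UBE2L6, which encodes the conjugating enzyme for ISG15. IFITM3 was 493, 588 and 724 with siPOLR1D-2 and 2829.5, 1804 and 2066 with siPOLR1D-3 (log2 difference 1.88, SE 0.20, adjusted p = 0.00835). IFITM1 was 16.97, 32.2 and 57.4 against 449.6, 303 and 393 (log2 difference 3.53, SE 0.41, adjusted p = 0.00864). No siPOLR1D-2 library reached a siPOLR1D-3 library for either gene, although SCR ranged from 354 to 1949 (median 1296) for IFITM3 and from 6.92 to 296 (median 163) for IFITM1, the latter below siPOLR1D-3. IFITM2, IFI27 and UBE2L6 had log2 differences of 1.59, 3.07 and 1.04 (adjusted p = 0.0198, 0.0207 and 0.0407 from limma). The IFITM genes are near-identical copies on chromosome 11, and IFITM2 (307631 to 315272) overlaps IFITM1 (313506 to 315272), so the split of reads between them is uncertain. The 16 genes of interferon and double-stranded RNA signalling gave 0 calls with limma, with a median of 0.10 (1 higher under upper quartile and under quantile normalization).

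The 250 bases before the RefSeq start of 4 of these genes are printed because the genes belong to one list and moved in opposite directions. Each is written 5′ to 3′ on the strand of its gene, from GRCh38.p14, with capitals where GAAA, any 2 bases and GAAA again, the core of an interferon-stimulated response element, was found on either strand.
DDX58 (called RIGI in RefSeq), chr9:32526197-32526446, minus strand: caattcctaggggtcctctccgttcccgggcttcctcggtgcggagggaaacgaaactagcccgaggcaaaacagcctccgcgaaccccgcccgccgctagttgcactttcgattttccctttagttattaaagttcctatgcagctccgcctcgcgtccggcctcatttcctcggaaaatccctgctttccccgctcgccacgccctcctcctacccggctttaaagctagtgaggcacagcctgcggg
SAMD9, chr7:93117980-93118229, minus strand: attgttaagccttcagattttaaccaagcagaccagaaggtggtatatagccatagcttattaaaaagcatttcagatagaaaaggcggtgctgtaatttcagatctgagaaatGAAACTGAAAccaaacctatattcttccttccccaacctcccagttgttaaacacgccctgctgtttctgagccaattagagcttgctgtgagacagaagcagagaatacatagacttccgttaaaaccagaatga
IFITM1, chr11:313790-314039, plus strand: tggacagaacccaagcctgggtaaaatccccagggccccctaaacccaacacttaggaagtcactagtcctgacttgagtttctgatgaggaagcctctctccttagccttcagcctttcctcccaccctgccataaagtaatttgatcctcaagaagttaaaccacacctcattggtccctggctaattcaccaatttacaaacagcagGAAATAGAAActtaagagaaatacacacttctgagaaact
IFITM3, chr11:320861-321110, minus strand: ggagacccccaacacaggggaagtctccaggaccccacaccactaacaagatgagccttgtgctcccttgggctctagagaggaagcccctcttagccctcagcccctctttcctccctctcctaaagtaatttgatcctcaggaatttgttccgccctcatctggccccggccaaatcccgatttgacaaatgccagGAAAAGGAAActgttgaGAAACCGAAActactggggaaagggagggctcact
The motif stands once in the SAMD9 and IFITM1 windows, 2 times in the IFITM3 window and is not in that of DDX58. Of the windows not printed, that of IFI27 holds it 2 times and that of UBE2L6, also higher with siPOLR1D-3, does not. It is in 839 of 27305 such windows (3.07%). A match describes letters only, and its absence says nothing of the factor.

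Wnt targets and intestinal stem cell genes had the largest share of calls among the lists with 12 or more tested members. Of 24 tested, 7 were higher and 2 lower with siPOLR1D-3 (37.5% called, against 8.23% of all genes), with a median difference of 0.48. APCDD1, a Wnt-induced membrane antagonist, was 2707, 2199 and 4044 with siPOLR1D-2 and 12956, 12380.3 and 12670.0 with siPOLR1D-3, against 1143 to 6235 (median 5705) in SCR (log2 difference 2.13, SE 0.20, adjusted p = 0.00835). EPHB2, a Wnt-dependent receptor of the crypt base, was 336, 284 and 422 against 826, 867 and 952 (log2 difference 1.36, SE 0.17, adjusted p = 0.0107). CD44, an adhesion receptor of intestinal stem cells, was 1974, 1889.6 and 1095 against 3613, 4183 and 4468 (log2 difference 1.35, SE 0.22, adjusted p = 0.0207), and its SCR libraries ranged from 2392 to 2987 (median 2712). APCDD1 and EPHB2 lay above every SCR library with siPOLR1D-3, and CD44 lay above SCR with siPOLR1D-3 and below SCR with siPOLR1D-2.

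For CD44, siPOLR1D-2 replicate 3 was the lowest of all 12 SW480 libraries, at a position of -0.76, the side away from siPOLR1D-3. DKK4, a secreted Wnt inhibitor induced by the pathway, was 721, 657 and 549.8 against 1333, 2056 and 3735 (log2 difference 1.76, SE 0.33, adjusted p = 0.0252), with SCR from 164 to 2122 (median 525). The other genes of this list called higher were LEF1, a transcription factor of the pathway, AXIN2, its feedback inhibitor, and RNF43, a ligase that removes Wnt receptors, with log2 differences of 0.83, 0.76 and 0.95. For these 3 the siPOLR1D-3 libraries were above every SCR library. MYC and CCND1, which promote cell cycle entry and are in the MAPK list too, were the 2 called lower, with log2 differences of -0.63 and -0.71. Without siPOLR1D-2 replicate 3 the list had 11 genes higher and 3 lower, in a fit that called 33.7% of all genes, against 8.23% with it.

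Genes of colonocyte differentiation gave 3 calls of 23 tested, all higher with siPOLR1D-3 (13.04% called, against 8.23% of all genes), and a median of 0.46. Upper quartile normalization gave 3 calls and a median of 0.53, and quantile normalization 2 calls and a median of 0.25. With the SCR libraries in the fit 1 gene of this list was called. CDX2, the intestinal homeobox factor encoded near POLR1D at 13q12.2 (chromosome 13, 27962137 to 27971139), was 46.5, 56.1 and 63.4 with siPOLR1D-2 and 168, 161 and 224 with siPOLR1D-3 (log2 difference 1.72, SE 0.23, adjusted p = 0.0145). The groups did not overlap, but SCR ranged from 45.5 to 169 (median 81.05), across both. MUC12, a transmembrane mucin, was 183, 91.3 and 73.4 against 391, 414 and 428 (log2 difference 1.93, SE 0.32, adjusted p = 0.0207). With siPOLR1D-3 it lay above every SCR library, where it ranged from 23.3 to 163 (median 85.4). TFF3, a goblet cell peptide, differed by 1.06. Of the 13 tested genes listed at 13q12, POLR1D among them, 3 were called (23.1%, against 8.23% of all genes). CDX2 was higher, and POMP, a proteasome assembly factor, and USP12, a deubiquitinase, were lower, with log2 differences of -0.55 and -0.65.

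**Figure D3:**
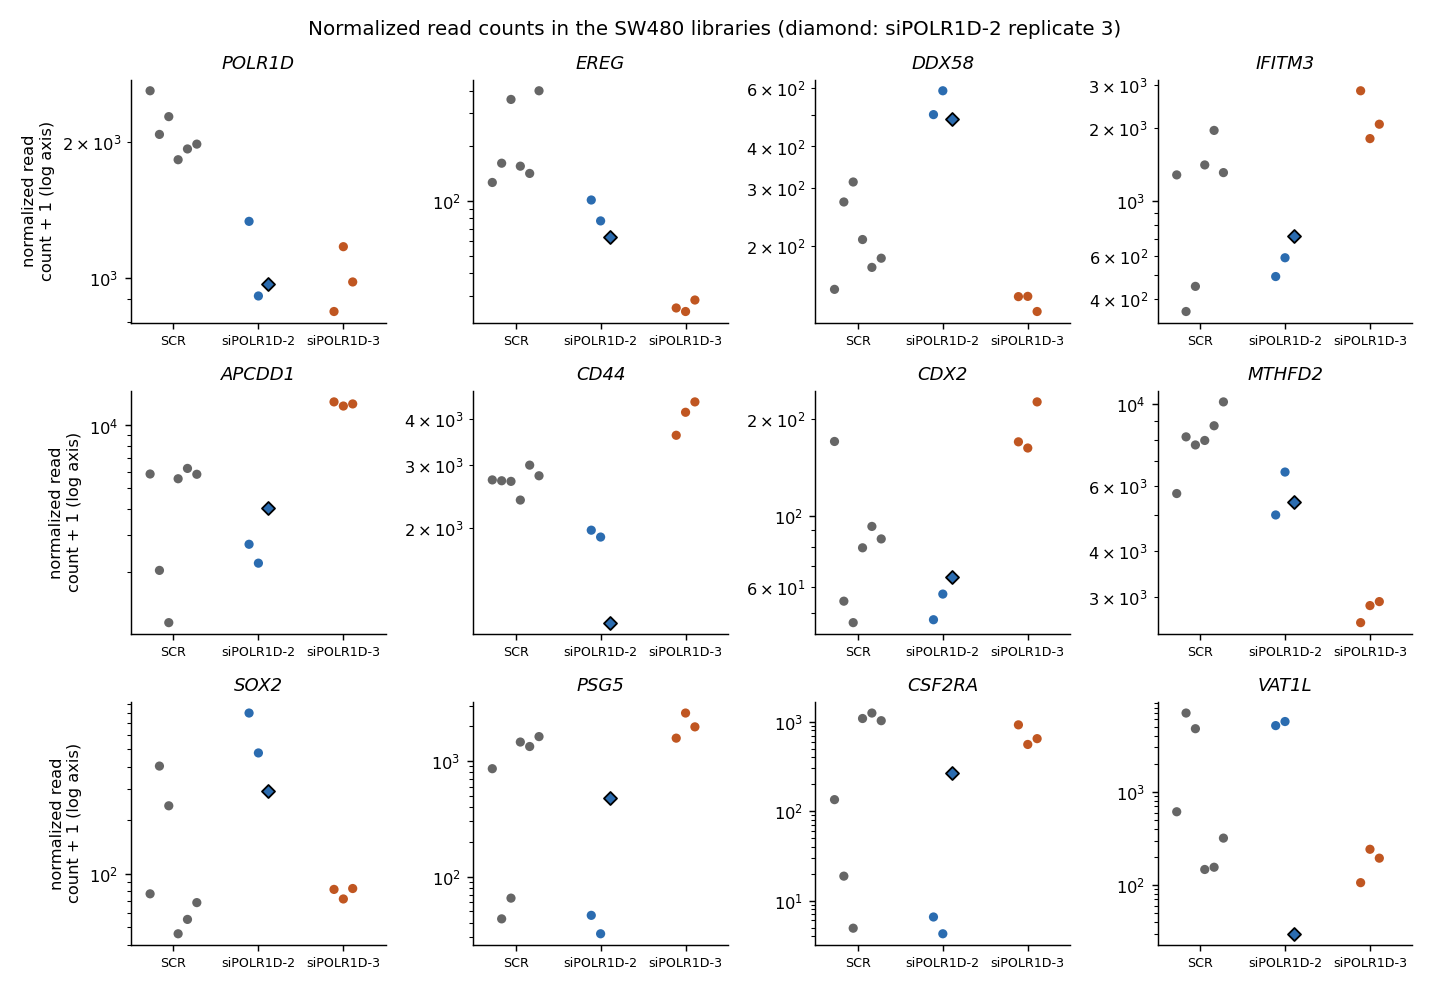
Each panel plots the normalized read count plus 1 of 1 gene on a log axis, with 1 point per SW480 library, for SCR (6), siPOLR1D-2 (3, with replicate 3 as a diamond) and siPOLR1D-3 (3). siPOLR1D-2 replicate 3 sits with its own siRNA for DDX58, CDX2 and MTHFD2, between the groups for PSG5 and CSF2RA, and below every other library for CD44 and VAT1L.

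All calls among MAPK output and immediate early genes were lower with siPOLR1D-3. Of 33 tested, 0 were higher and 5 lower (15.2% called, against 8.23% of all genes). A negative difference was seen for 31 of 33, against 49.2% of all genes, and the median was -0.50. FOSL1, an AP-1 subunit that follows ERK activity, was 274, 259 and 239 against 123, 157 and 131 (log2 difference -0.91, SE 0.18, adjusted p = 0.0269). SPRY1, a feedback inhibitor of receptor tyrosine kinase signalling, was 151, 126 and 134 against 48.97, 75.2 and 55.8 (log2 difference -1.20, SE 0.24, adjusted p = 0.0298). EPHA2, a receptor kinase, differed by -0.49, with both siRNAs below every SCR library. MYC and CCND1 were the remaining calls. For FOSL1, SCR ranged from 153 to 590.4 (median 241), while SPRY1 was below every SCR library with siPOLR1D-3.

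Of the 8 genes that the study names for its RNA-seq, EREG was called. EREG, which encodes epiregulin, a ligand of EGFR, was 99.7, 76.4 and 62.03 with siPOLR1D-2 and 24.8, 23.7 and 27.5 with siPOLR1D-3, against 125 to 398 (median 156) in SCR (log2 difference -1.59, SE 0.28, adjusted p = 0.0228). Both groups lay below every SCR library, siPOLR1D-3 lower than siPOLR1D-2. VEGFA, the angiogenic growth factor, was 711, 905 and 718 against 519, 515 and 566, and its log2 difference of -0.54 did not pass (95% interval -0.86 to -0.21, adjusted p = 0.0543 from limma). Its 3 libraries of each siRNA did not overlap either. In HT29 VEGFA went the other way, at 1280 and 1325 with siPOLR1D-2 against 1747 and 1635 with siPOLR1D-3. The log2 difference there was 0.38 (95% interval 0.10 to 0.65, adjusted p = 0.838 from limma), and the difference between the cell lines was not tested. In SW480, MOSPD2, GARS, LRATD2 (listed by the study as FAM84B), KIF21B, PPP1R15A and POLR1D had differences between -0.31 and 0.35 and adjusted p values from 0.233 to 0.765 from limma. ERBB2, a receptor partner of EGFR, was the other call among 12 genes of the EGF family and its receptors, at 541, 527 and 787 against 1114, 1247 and 1306 (log2 difference 1.004, SE 0.18, adjusted p = 0.0226). That list had 16.7% called, against 8.23% of all genes.

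The study's own list of genes reported after silencing, chosen on these samples, gave 4 genes higher and 3 lower with siPOLR1D-3 of 44 tested. This was 15.9% called, against 8.23% of all genes, with a median of -0.30. The list is not independent evidence of a direction. DOCK11, a guanine nucleotide exchange factor for CDC42, was 249, 322 and 217 with siPOLR1D-2 and 831, 824 and 773 with siPOLR1D-3 (log2 difference 1.64, SE 0.17, adjusted p = 0.00835). Its siPOLR1D-2 libraries fell within the SCR range of 174 to 357 (median 258), and the siPOLR1D-3 libraries lay above it. SLFN5, of the Schlafen family, was 121, 189.8 and 142 against 459, 463 and 511 (log2 difference 1.68, SE 0.20, adjusted p = 0.00878), and SCR ranged from 476 to 3591 (median 1296). All 3 siPOLR1D-2 libraries and siPOLR1D-3 replicates 1 and 2 lay below every SCR library. IL3RA, the interleukin-3 receptor subunit, and MUC12 were the other genes called higher, and MTHFD2, EREG and SLC7A11 those called lower.

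Among integrated stress response genes, 5 of the 6 calls were lower with siPOLR1D-3. Of 37 tested, 31 did not pass (16.2% called, against 8.23% of all genes). The difference was negative for 28 of 37, against 49.2% of all genes, and the median was -0.50. MTHFD2, a mitochondrial enzyme of one-carbon metabolism, was 4997, 6534 and 5432 with siPOLR1D-2 and 2549.6, 2837 and 2908 with siPOLR1D-3, against 5713 to 10129 (median 8051) in SCR (log2 difference -1.03, SE 0.13, adjusted p = 0.0107). SLC7A5, a transporter of large neutral amino acids, was 31775, 38017 and 42619.7 against 22519.6, 19409 and 20347 (log2 difference -0.84, SE 0.13, adjusted p = 0.0203). PSPH, the last enzyme of serine synthesis, was 1102, 1399.8 and 1001 against 632, 707 and 663 (log2 difference -0.79, SE 0.15, adjusted p = 0.0252).

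Each of these lay below every SCR library with siPOLR1D-3 and overlapped the SCR range with siPOLR1D-2. SLC7A11, the cystine transporter, and SLC3A2, the partner subunit of both transporters, differed by -1.28 and -0.65, and JDP2, a bZIP repressor, by 1.10. Of 21 aminoacyl-tRNA synthetases, which charge tRNAs, 2 were higher and 0 lower (QARS 0.72, TARSL2 0.93), or 9.52% called. That list's median was nevertheless -0.28, and 17 members had a negative difference. Of 34 genes of the endoplasmic reticulum unfolded protein response, 2 were lower (5.88% called) and the median was 0.11.

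NRF2 antioxidant targets gave 5 lower and 0 higher of 25 (20% called, against 8.23% of all genes), with a median of -0.24. SRXN1, which repairs oxidized peroxiredoxins, was 492, 427 and 492 against 294, 305 and 296 (log2 difference -0.65, SE 0.13, adjusted p = 0.0326). GCLC, the catalytic subunit of glutathione synthesis, and TXNRD1, thioredoxin reductase, differed by -0.52 and -0.39, and TXN, thioredoxin, by -0.77. siPOLR1D-3 was below every SCR library for SRXN1, GCLC, TXNRD1, TXN and SLC7A11, the remaining call of the list.

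The polymerases that contain POLR1D had a share of calls near that of all genes. Of 24 RNA polymerase I and III subunits, 2 were lower with siPOLR1D-3 and 0 higher (8.33% called), 22 had a negative difference, and the median was -0.27. POLR3C, a polymerase III subunit, was 1125, 835 and 864 against 567, 555 and 513 (log2 difference -0.78, SE 0.15, adjusted p = 0.0259). It was below every SCR library with siPOLR1D-3. Of 24 factors of these polymerases, 2 were lower (MAF1, a repressor of polymerase III, -0.67, and TAF1A, of the polymerase I selectivity factor, -0.69).

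The classes of ribosome genes had shares of calls near the 8.23% of all genes, in opposite directions. Of 71 ribosome biogenesis factors, 6 were lower and 0 higher (8.45%), 63 had a negative difference and the median was -0.24. NOLC1, a nucleolar phosphoprotein that binds polymerase I, was 12422, 10001 and 10054 with siPOLR1D-2 and 5993, 7287 and 7097 with siPOLR1D-3 (log2 difference -0.67, SE 0.13, adjusted p = 0.027), and WDR74, of the large subunit assembly line, was 2903, 2138 and 3805 against 1381, 1244 and 1545 (log2 difference -1.05, SE 0.20, adjusted p = 0.0271). Of 79 cytosolic ribosomal protein genes, 6 were higher and 0 lower (7.59%), 60 had a positive difference and the median was 0.12, with 12 called under upper quartile and 11 under quantile normalization. RPS3A was 7704, 6268 and 9978 with siPOLR1D-2 and 20464, 22289.8 and 21098 with siPOLR1D-3, against 18414 to 25717 (median 22683) in SCR (log2 difference 1.44, SE 0.17, adjusted p = 0.00861). RPL3 was 13267, 14184 and 14137 against 22702, 22352 and 21445 (log2 difference 0.68, SE 0.093, adjusted p = 0.0151). RPS26 was 2726, 1895 and 2139 against 4606, 4075 and 4732 (log2 difference 1.002, SE 0.15, adjusted p = 0.0173). For these 3 genes the siPOLR1D-2 libraries, replicate 3 included, lay below every SCR library. Ribosomal protein genes have many processed pseudogenes, so the reads assigned to each are uncertain.

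Of 43 translation factors, 7 were lower and 1 higher with siPOLR1D-3 (18.6% called, against 8.23% of all genes), with a median of -0.08. EIF4A2, an RNA helicase of the cap-binding complex, was 7043, 6839 and 7969.7 against 3742, 3684 and 3685 (log2 difference -0.97, SE 0.10, adjusted p = 0.00835). It was below every SCR library with siPOLR1D-3, and SCR ranged from 4564 to 6897 (median 5764). EIF4H, which stimulates that helicase, EIF5A and the translation repressor EIF4EBP1 differed by -0.64, -0.63 and -0.74. Lists of the mitochondrion gave 5 lower of 74 mitochondrial ribosomal proteins (6.76% called, median -0.27). Of 72 nuclear oxidative phosphorylation subunits, 3 were higher and 7 lower (13.9% called, median -0.056), and 4 were higher and 3 lower under either scaling alternative. Of 13 transcripts of the mitochondrial genome 0 were called, and all 13 had a negative difference (median -0.48).

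Of 35 genes of focal adhesions and the cytoskeleton, 6 were higher and 1 lower with siPOLR1D-3. This was 20% called, against 8.23% of all genes, while the median was 0.03. ITGA1, a collagen-binding integrin, was 1008, 1312 and 1039 with siPOLR1D-2 and 3069, 3193 and 3726 with siPOLR1D-3 (log2 difference 1.58, SE 0.14, adjusted p = 0.00835), and siPOLR1D-2 was below the SCR range of 1903 to 3919 (median 3357). MYL9, a myosin light chain, was 44.8, 41.5 and 145 against 276, 287 and 311 (log2 difference 2.15, SE 0.45, adjusted p = 0.0328), and SRC and ACTN1, a tyrosine kinase and an actin crosslinker, differed by 1.25 and 0.73. CAV1, the caveolar coat protein, was the call that was lower, at 305, 258 and 359 against 134, 177 and 200.03 (log2 difference -0.86, SE 0.21, adjusted p = 0.0486). For MYL9, siPOLR1D-2 replicate 3 lay at position 0.63, and SCR ranged from 31.5 to 395 (median 222). Of 22 mesenchymal genes, 2 were called (9.09%, against 8.23% of all genes). COL6A2, a collagen VI chain, was 43.7, 19.9 and 44.2 against 247, 299 and 297 (log2 difference 3.01, SE 0.33, adjusted p = 0.00835), and SPARC, a matrix glycoprotein, 109, 71.6 and 245 against 1073, 871 and 1002 (log2 difference 2.97, SE 0.39, adjusted p = 0.0134), and 0 were lower, with a median of 0.025 that turned to -0.15 under quantile normalization. COL6A2 was above every SCR library with siPOLR1D-3, while SPARC was within the SCR range.

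Of 18 TGF-beta and BMP targets, ID2, an inhibitor of differentiation factors, was higher by 1.84, and PMEPA1, a TGF-beta feedback inhibitor, TGIF1 and SKIL were lower, with differences of -1.998, -0.62 and -0.57. The share called in this list was 22.2%, against 8.23% of all genes. Its median was -0.019, and 0.051 under upper quartile normalization. Of 26 genes of RNA silencing and P-bodies, the pathway that siRNAs enter, TNRC6B, an Argonaute partner, was 1221, 1253 and 1118 against 2061, 1877 and 1889.5 (log2 difference 0.70, SE 0.11, adjusted p = 0.0179) and PATL1, a decapping factor, 3285, 3260.2 and 3264 against 2137, 1932 and 2067 (log2 difference -0.68, SE 0.095, adjusted p = 0.0152). The siPOLR1D-2 libraries lay outside the SCR range for both, below it for TNRC6B and above it for PATL1. DCP2 and XRN1, which remove caps and degrade mRNA, were higher by 0.64 and 0.67. The silencing list had 15.4% called, against 8.23% of all genes. Of 21 genes of fatty acid synthesis, 1 was higher and 2 lower (14.3% called). ELOVL6, a fatty acid elongase, was 396, 419 and 323 against 162, 170.03 and 171 (log2 difference -1.17, SE 0.16, adjusted p = 0.0152), ELOVL5, another, differed by -0.61, and ACSL4, a fatty acyl-CoA ligase, was the higher one, at 1515, 1700.2 and 1185 against 2504, 2528 and 2687 (log2 difference 0.83, SE 0.14, adjusted p = 0.0226).

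The lists for proteasome subunits (9.38% called), splicing (10.4%), apoptosis (11.1%), cholesterol (12%), cytosolic chaperones (12.5%), p53 targets (13.8%) and autophagy and lysosomes (13.95%) held 3 to 6 calls each, against 8.23% of all genes. Of 36 apoptosis regulators, 3 were lower and 1 higher, and CASP2, a caspase, was 2881, 3272 and 2950.2 with siPOLR1D-2 and 1654, 1713 and 1766 with siPOLR1D-3 (log2 difference -0.82, SE 0.10, adjusted p = 0.0107). For CASP2, siPOLR1D-2 lay above every SCR library. Of 43 genes of autophagy and the lysosome, 4 were higher and 2 lower, and ATG5, which conjugates LC3 to membranes, was 745, 766 and 739 against 470.02, 489 and 501 (log2 difference -0.62, SE 0.11, adjusted p = 0.0233). ATG5 lay above SCR with siPOLR1D-2 and below SCR with siPOLR1D-3, while NPC2, a lysosomal cholesterol carrier, differed by 1.35 and overlapped the SCR range with both siRNAs.

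Of 29 p53 targets, TP53INP1, FDXR and TP53I3 were higher by 1.23, 0.92 and 0.96, and GADD45A, a stress sensor of DNA damage, was 804, 939.6 and 795 against 423, 517 and 489.9 (log2 difference -0.83, SE 0.14, adjusted p = 0.0207). Of 25 cholesterol genes, 3 were lower, among them DHCR7 and CYP51A1, enzymes of the pathway (-0.91 and -0.72), and both overlapped the SCR range with both siRNAs. Of 24 cytosolic heat shock chaperones 2 were lower and 1 higher, and DNAJB1, an HSP70 partner, was 1507, 1422 and 1359.8 against 784, 912 and 840.1 (log2 difference -0.76, SE 0.11, adjusted p = 0.0173). Of 32 proteasome subunits 3 were lower and of 48 splicing genes 4 were lower and 1 higher. The higher one, SF3B3, a subunit of the branch site complex, was 5079.5, 4025 and 5047 against 8805, 9999 and 9234 (log2 difference 0.99, SE 0.12, adjusted p = 0.0107), with siPOLR1D-2 below every SCR library.

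Cell cycle lists stayed under the background. Of 55 genes of DNA replication and the G1/S transition, 0 were higher and 2 lower, of 55 genes of mitosis and G2/M 1 was higher and 0 lower, and of 39 replication-dependent histone genes 0 passed. Their medians were -0.04, 0.16 and 0.055. For the replication list, upper quartile and quantile normalization turned the median to 0.03 and 0.045 and gave 1 higher and 0 lower.

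**Figure D4:**
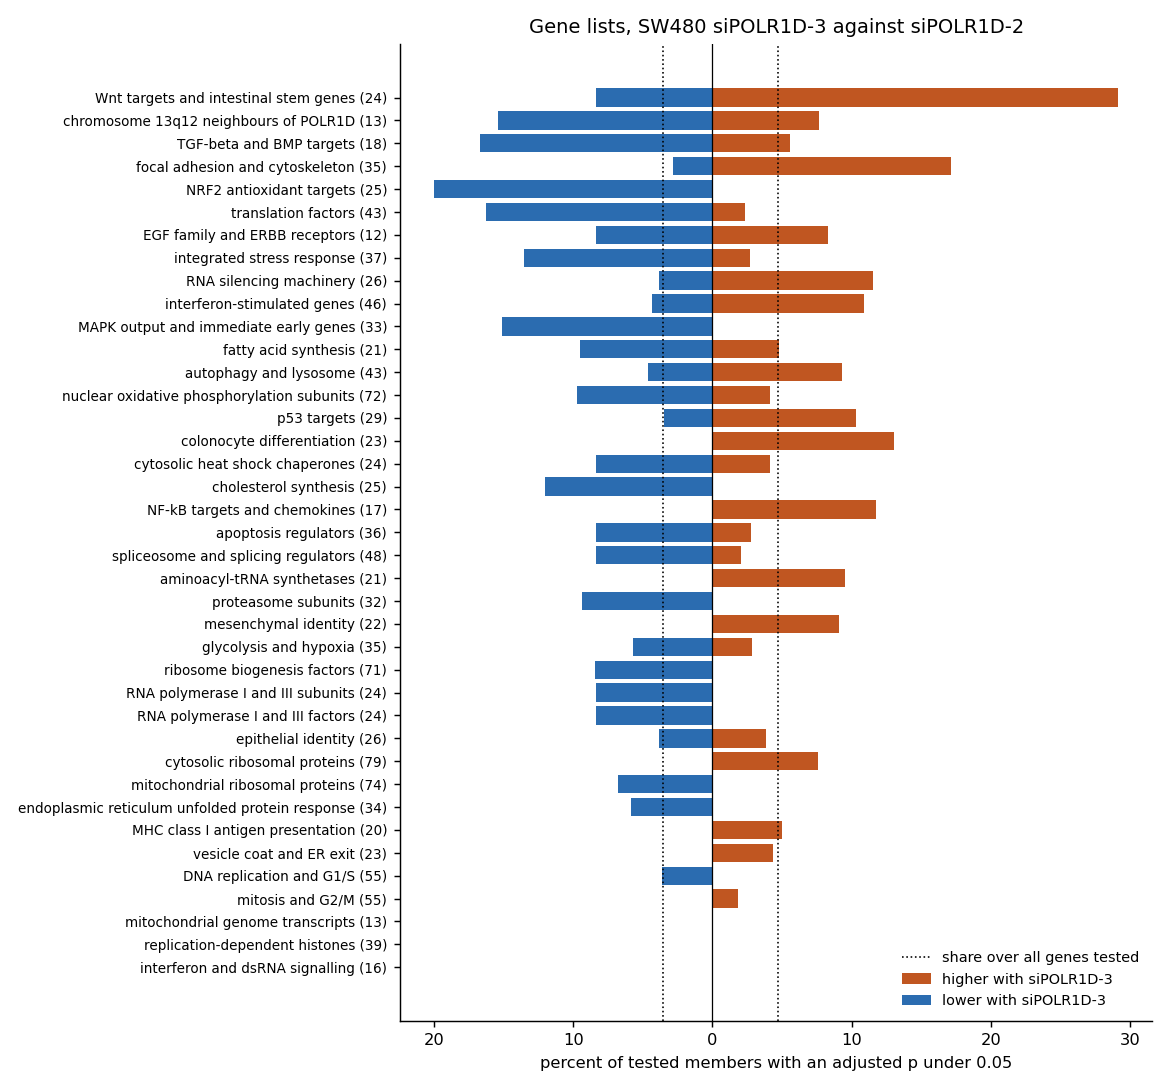
Bars give the percent of tested members of each gene list (number tested in parentheses) called higher (right, orange) or lower (left, blue) with siPOLR1D-3, and dotted lines the share over all genes tested, 4.71% and 3.52%. Wnt targets reach furthest to the right with 7 of 24, and NRF2 targets furthest to the left with 5 of 25; no bar carries an error, and the lists overlap in some members.

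The genes with the largest differences were mostly low in SW480. The 12 highest calls with a mean of 50 or more with at least 1 siRNA had log2 differences of 3.96 to 5.09, on a scale that depends on the pseudocount where libraries are near 0. CCR3, a chemokine receptor, was 0, 1.35 and 2.42 with siPOLR1D-2 and 72.9, 52.1 and 79.2 with siPOLR1D-3 (log2 difference 5.09, SE 0.56, adjusted p = 0.00835), above every SCR library, where it ranged from 0.699 to 40.3 (median 24.4). PSG5, a pregnancy-specific glycoprotein on chromosome 19 from 43166256 to 43186536, was 45.3, 31.1 and 474 against 1570.5, 2589 and 1966 (log2 difference 4.49, SE 0.89, adjusted p = 0.0288). AFF3, a transcription elongation factor subunit, was 30.5, 25.7 and 193 against 899, 874 and 951 (log2 difference 4.05, SE 0.67, adjusted p = 0.0207). SCR ranged from 42.1 to 1619.7 (median 1092) for PSG5 and from 37.9 to 1190.5 (median 706) for AFF3. SCR replicates 2 and 3 were low, at 42.1 and 64.2 for PSG5 and 41.7 and 37.9 for AFF3. SCR replicates 4 to 6 were high, at 1329 to 1619.7 for PSG5 and 1119 to 1190.5 for AFF3.

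The others were ACSL6, a fatty acyl-CoA ligase, BGN, a matrix proteoglycan, SCARF2, a scavenger receptor, KIAA1211L, CST4, a secreted protease inhibitor, PSG9, the pseudogenes OR7E13P and FLT1P1, and the readthrough gene MROH7-TTC4, whose reads may belong to neighbours or copies. On the log2 scale siPOLR1D-2 replicate 3 was past the midpoint for 8 of these 12 and under 0.25 for 2, CCR3 and MROH7-TTC4. On values not logged it was short of the midpoint for the same 8, from 18.8% of the way for AFF3 to 34.5% for PSG9. Of 9 PSG genes tested (a family counted after PSG5 and PSG9 were seen), 7 were called, all higher with siPOLR1D-3. All 9 did not overlap between siRNAs, with a median difference of 3.42. In all 9, SCR replicates 2 and 3 were below SCR replicates 4 to 6. Over all genes tested, 8.23% were called and 34.4% did not overlap. The family was picked from these same values and its copies are near-identical, so its members are not separate observations.

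The 12 lowest calls had log2 differences of -3.68 to -2.06, and 1 had an accession name only. AMPD1, AMP deaminase, was 162, 104 and 13.6 with siPOLR1D-2 and 2.23, 4.56 and 5.64 with siPOLR1D-3 (log2 difference -3.68, SE 0.86, adjusted p = 0.0431). MAOA, monoamine oxidase A, was 935, 1044 and 147 against 66.8, 36.8 and 32.3 (log2 difference -3.58, SE 0.71, adjusted p = 0.0288). SOX2, a stem cell transcription factor, was 797, 476 and 292 against 80.7, 71.3 and 81.7 (log2 difference -2.61, SE 0.34, adjusted p = 0.0123), with SCR from 45.1 to 401 (median 72.1). For AMPD1 and MAOA, siPOLR1D-2 replicate 3 lay at positions 0.67 and 0.61, and SCR replicates 4 to 6 were near siPOLR1D-3.

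GJA1, which encodes connexin 43, was 223, 105 and 128 against 9.97, 26.9 and 14.5 (log2 difference -3.11, SE 0.43, adjusted p = 0.0152), and here siPOLR1D-2 replicate 3 stayed with its own siRNA, at 0.081. MAGEC1, a cancer-testis antigen, was 79.8, 157 and 70.9 against 8.49, 9.29 and 16.96 (log2 difference -3.01, SE 0.42, adjusted p = 0.0152), above every SCR library with siPOLR1D-2. The remaining ones were OPRD1, the delta opioid receptor, KRT6C, a keratin, EMP1, an epithelial membrane protein, NLRP11, CCDC110 and PRR20C, with differences between -3.50 and -2.06. KRT6C and PRR20C have near-identical copies, so their reads are uncertain.

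Without siPOLR1D-2 replicate 3, other genes led. CSF2RA, the GM-CSF receptor subunit, was 5.56, 3.26 and 267 in siPOLR1D-2 and 920.4, 555 and 645 in siPOLR1D-3, a log2 difference of 7.03 in the 5 libraries and 5.14 in the 6 (adjusted p = 0.0576 from limma). ALPL, alkaline phosphatase, was 1.11, 0 and 72.1 against 205, 109.9 and 102, with 6.52 and 4.63. OLR1, a receptor for oxidized LDL, was 8.69, 24.4 and 543 against 1156, 854 and 825, with 5.90 and 4.19. In each of these, siPOLR1D-2 replicate 3 lay between the groups, past the midpoint on the log2 scale, and SCR replicates 2 and 3 were low and 4 to 6 high.

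VAT1L, on chromosome 16, was 5154, 5701 and 28.9 against 105, 241 and 193, so that replicate 3 lay below even siPOLR1D-3. Its log2 difference was -4.99 in the 5 libraries and -2.49 in the 6 (adjusted p = 0.394 from limma), and SCR ranged from 146 to 7034 (median 465). EFNA5, an ephrin ligand, was 229, 216 and 9.87 against 2.41, 9.49 and 21.1. RPL39P3, a ribosomal protein pseudogene that other copies share reads with, was 440.1, 92.99 and 45.2 against 0, 60.8 and 0. SCARF2, OR7E13P, AMPD1 and MAOA complete the 10 genes.

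Some genes set siPOLR1D-2 replicate 3 apart from all 5 other libraries, by over 2-fold for 241 genes, 66 above and 175 below. The same count was 294 and 269 for siPOLR1D-2 replicates 1 and 2, and 65, 59 and 23 for siPOLR1D-3 replicates 1, 2 and 3. The genes farthest above were the near-identical SPANXA1 and SPANXA2, sperm proteins with the same values (14.9, 23.6 and 163 against 6.42, 9.32 and 10.01), CAPN6, a calpain (1.16, 6.44 and 243 against 42.5, 43.4 and 25.4), and PTPRD, a receptor phosphatase (3.77, 6.36 and 301 against 59.6, 38.9 and 38.8). Another had an accession name only. Those farthest below were CYP3A7-CYP3A51P, a readthrough gene (16.2, 71.9 and 0 against 140.4, 142 and 89.4), GOLGA6C (24.2, 24.7 and 0 against 51.02, 36.1 and 10.02), GZMB, a protease (43.9, 33.2 and 2.53 against 39.3, 55.2 and 56.4), CACNG8 (44.8, 91.6 and 0.481 against 10.8, 10.1 and 13.8) and 1 with an accession name. None of these genes was called between the siRNAs.

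The same siRNAs were set against each other in HT29, with 2 libraries each and none in common with SW480. POLR1D was 3414 and 3492 with siPOLR1D-2, 2858 and 2549.6 with siPOLR1D-3, and 4433 to 6036 in SCR (n = 4). The means were 68.4% of the SCR mean with siPOLR1D-2 and 53.6% with siPOLR1D-3. The siRNA groups did not overlap, and the log2 difference was -0.36 (95% interval -0.62 to -0.093, adjusted p = 0.838 from limma). limma called 0 of 13479 genes in HT29 (0.0% of those tested), with 673 at an unadjusted p under 0.05. Without siPOLR1D-2 replicate 2 it called 867, and without each of the other 3 libraries 1, where the lone library left is assumed to vary like the others.

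Of the 1261 SW480 calls, 997 were tested in HT29, and 792 of them (79.4%) had the same sign there, against 8079 of 12900 (62.6%) for all genes tested in both. Across those 997 genes, which are not independent replicates, Pearson's r of the differences was 0.51 and Spearman's rho 0.58. The median HT29 difference was 0.20 for genes called higher in SW480 and -0.17 for those called lower, where the median size in SW480 was 0.90 over all 1261 calls. At an unadjusted p under 0.05 in HT29, 85 had the same sign and 4 the other. These sign counts and correlations, and the HT29 list medians below, include HT29 siPOLR1D-2 replicate 1. They were not computed without that library, so how far they rest on it was not tested. IFITM1 was 0 and 31.0 with siPOLR1D-2 and 44.8 and 73.3 with siPOLR1D-3 in HT29, a log2 difference of 3.37, and 0.87 without siPOLR1D-2 replicate 1. IFITM3 was 55.5 and 228 against 268 and 294, with 1.31 and, without that library, 0.29. DOCK11 was 32.5 and 199 against 326 and 421, with 2.18 and 0.89, and IFI27 was 83.6 and 518 against 1185 and 1481, with 2.66 and 1.35. The groups did not overlap for these 4 genes, but siPOLR1D-2 replicate 1 was the lowest library in each. DDX58 was 463 and 578 against 549 and 589, with 0.13 and, without siPOLR1D-2 replicate 1, -0.025, so that its sign changed with that library. None of these 5 genes passed in HT29. The medians in HT29 were 0.53 for interferon-stimulated genes, 0.37 for Wnt targets and 0.64 for colonocyte genes, on the SW480 side, and 0.049 for the integrated stress response, on the other. The difference between the cell lines was not tested, since their tables were normalized separately.

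**Figure D5:**
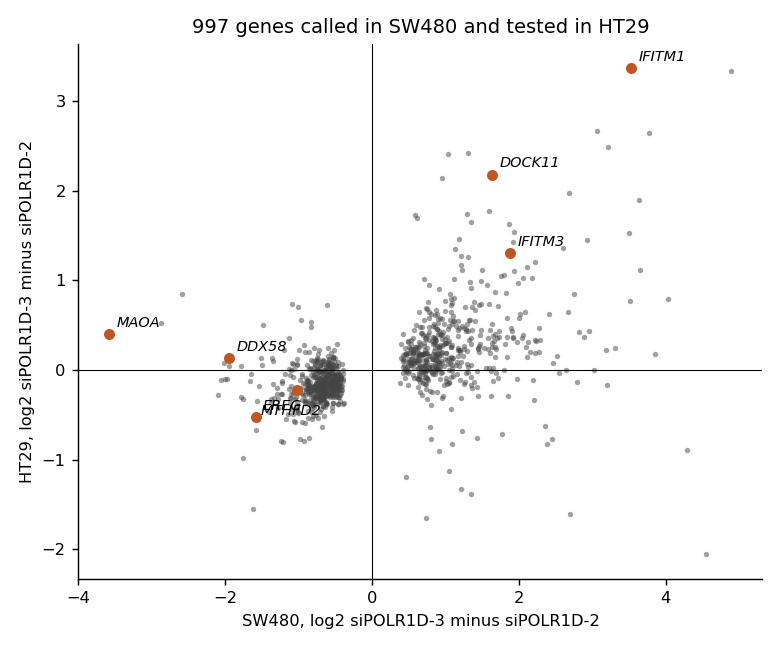
Each point is 1 of the 997 genes called in SW480 and tested in HT29, with the log2 difference of siPOLR1D-3 minus siPOLR1D-2 in SW480 on the x axis and in HT29 on the y axis, and named genes in orange. Most points lie in the lower left and upper right quadrants (792 of 997).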

How the data were processed

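RNA from SW480 and HT29 cells was captured with an RNA exome kit and sequenced. Per the labels and the processing notes of the submitters, the authors checked reads with FastQC 0.11.5, quantified genes with kallisto 0.44.0 and normalized with DESeq2 1.24.0 on hg38. The values the authors deposited are normalized DESeq2 read counts, a gene-level signal with 1 file per library, scaled separately in each cell line. They are not whole numbers, and low values were whole multiples of 1 read in 28.7% to 59.0% of cases per library (tolerance 0.01), so reads were not recovered and no count model was used. The annotation behind the gene names is not given in the sources used here. Coordinates are from GENCODE v29, whose release may differ from the authors'.

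Values of the same gene name were summed. Genes with a value of 10 or more in at least 3 of the 6 SW480 libraries (2 of the 4 HT29 libraries) were tested as log2(value + 1) with limma 3.58.1 (trend, empirical Bayes, Benjamini-Hochberg) in R 4.3.3, and called at an adjusted p under 0.05. Fold changes are on that scale and understate the change of low genes. Intervals are at 95%. On simulated data with 200 changed genes of 15325, the same comparison recovered 35.6% of genes changed by 1 and 68.8% of those changed by 2 on the log2 scale, with 5.66% wrong calls. The simulation drew genes independently, with the same spread in every library. In the data siPOLR1D-2 replicate 3 deviated across many genes together, so these rates need not hold for the calls reported here. The members and gene lists were chosen with earlier results of these data known.

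Genes were named as POLR1D and the 8 genes that the study names, the 12 highest and 12 lowest calls that do not overlap and have a mean of 50 or more with 1 siRNA, up to 4 members of a list by smallest p, the 5 extremes in each direction without siPOLR1D-2 replicate 3, and the 5 genes in each direction in which that library lies farthest from the others. Other called members of a list, PDGFRB and the genes quoted in HT29 were named after their values were seen. Genes with an accession name only were counted, not named, and some called members of the lists are not reported here. Promoters are from RefSeq (GRCh38.p14). IFITM2 had no entry in that table. Alternatives covered the pseudocount, the filter, the scaling, the variance model, a replicate block, added SCR libraries, gene names kept apart and each library left out. The position of siPOLR1D-2 replicate 3 on values not logged was added after seeing the data.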

Additional observations from a re-analysis of the deposited data

Results flagged for a closer look

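MAGEC1 was 65.1 in SCR replicate 1 of SW480, apart from the other 5 SCR libraries, which lay between 5.01 and 18.3. It was 1 of 32 SCR groups of 6 libraries looked at, and chance puts about 5% of such groups past the limit used (Dixon's). The siPOLR1D-2 libraries, at 70.9 to 157, lay above SCR replicate 1 as well.

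BGN, a matrix proteoglycan, differed in opposite directions in the cell lines. In HT29 it was 33.1 and 9.35 with siPOLR1D-2 and 7.49 and 3.64 with siPOLR1D-3, a log2 difference of -1.58. In SW480 it was 0, 1.30 and 22.8 with siPOLR1D-2 and 81.3, 94.2 and 65.6 with siPOLR1D-3 (log2 difference 4.41, SE 1.04, adjusted p = 0.0433 from limma). The difference between the cell lines was not tested.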

How the results depend on the processing

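In SW480, the 1261 calls became 299 without the mean-variance trend, 4755 with array weights and 494 with the SCR libraries in the same fit, and ranged from 0 (without any 1 siPOLR1D-3 library) to 5161 (without siPOLR1D-2 replicate 3) with 1 library left out. Calls numbered 1053 to 1425 with another pseudocount, filter, scaling or robust variance, and 1250 with gene names kept apart. Of 166 called genes named or listed, 124 kept the call without a filter, 140 under upper quartile normalization, 134 under quantile normalization, 61 with SCR in the fit, 36 without the trend, 15 with the replicate block, 33 or 39 without siPOLR1D-2 replicate 1 or 2 and 0 without any 1 siPOLR1D-3 library. In HT29, leaving out 1 library gave 1 to 867 calls (867 without siPOLR1D-2 replicate 2) against 0.

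With the replicate number as a block, SW480 gave 60 calls and HT29 2. The residuals of same-numbered libraries had correlations of -0.16, 0.039 and -0.087 in SW480 and -0.016 in HT29. Residuals cancel within each siRNA group, and in HT29 the other-numbered pairs mirror this value at 0.016 by construction. With so few libraries these correlations cannot decide whether the numbers pair the libraries, and the labels do not say.

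The median position of siPOLR1D-2 replicate 3 was 0.74 over the 2416 genes with a difference over 1 and 0.62 to 0.66 in the other settings. Differences that changed sign belonged to genes that were not called. PPP1R15A moved from -0.11 to 0.0053 with array weights. With 1 library left out, POLR1D ranged from -0.22 to 0.072, KIF21B from -0.041 to 0.16, CAPN6 from -0.20 to 3.21, PTPRD from -0.043 to 2.95 and CACNG8 from -2.39 to 0.60. The depth before normalization was estimated only, and differences of genes near 0 depend on the pseudocount. The causes of these changes were not tested.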
